A study of Mus musculus with 9 samples.

Results

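The genes described here are 9 proteins that work directly beneath immune receptors in myeloid cells. They are the kinases Lyn, Fgr, Fes, Syk and Btk, the phospholipase Plcg2, the adaptor Lat2 and the inhibitory phosphatases Inpp5d and Ptpn6. These genes, and the wider lists used later, were chosen by name with earlier results of these data known. Counts set beside the share of all genes therefore describe them and do not test them as a group. Every array probe whose transcript accession in the scanner files belongs to one of the 9 genes was taken. This gave 13 probes of the 41174 on the array, and 9 genes of the 16535 that could be named. All 13 probes were well above background on all 9 arrays, so all 9 genes were tested.

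The study asked how the transcription factors GATA2 and PU.1 shape gene expression in multipotent blood progenitors. Its cells were FDCPmix, a mouse hematopoietic progenitor line that self-renews in IL-3 and can differentiate along several lineages. Cultures held in self-renewal conditions received Lentilox 3.7 lentivirus coding for an shRNA against Gata2 (Gata2 KD) or against Pu.1 (Pu.1 KD, gene symbol Spi1), or virus without an shRNA (EV), with 3 samples in each group. After 5 days, living GFP+ cells were sorted from every group, and 150 ng of total RNA per sample was labeled with Cy3 for single-color Agilent mouse arrays. All 3 groups therefore carried the vector and its GFP, and were a sorted fraction of 1 cell line. Per the methods, the cells of each group were transduced in triplicate, so the 3 samples of a group are transduced samples of the line. Whether they came from separately grown cultures is not said. The reported fit has no term for the array slide, so its p-values measure the spread between these samples together with differences between slides.

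Receptors for antibody Fc regions, integrins and several pattern receptors signal through short tyrosine motifs, the ITAMs, that sit on partner chains such as Tyrobp and Fcer1g. Src family kinases such as Lyn and Fgr phosphorylate an engaged ITAM, and Syk docks on it. Adaptor proteins gather Tec family kinases such as Btk and the enzyme Plcg2 around the activated receptor. Inpp5d, which removes a phosphate from the lipid made by PI3-kinase, and Ptpn6, a tyrosine phosphatase drawn to inhibitory receptors, hold the response in check.

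GATA2 and PU.1 are DNA-binding proteins, so the promoters of the members were searched for short words typical of PU.1 and other ETS factors (GGAAGTG and GAGGAA) and of GATA factors (AGATAA), on both strands, in the 250 bases before each start site. RefSeq promoter sequences on build GRCm38.p6 were at hand for 7 of the 9 members and gave 8 promoters, with 2 for Syk. Lyn and Lat2 were not in the table. The 4 promoters that held a word are shown with it in capitals, 5′ to 3′ on the strand of the gene, because they let the letters be read beside the changes described afterwards. They are Fgr (chr4:132973845-132974094, plus strand), the second Syk promoter (chr13:52596632-52596881, plus strand), Inpp5d (chr1:87620062-87620311, plus strand) and Plcg2 (chr8:117498025-117498274, plus strand).
Fgr: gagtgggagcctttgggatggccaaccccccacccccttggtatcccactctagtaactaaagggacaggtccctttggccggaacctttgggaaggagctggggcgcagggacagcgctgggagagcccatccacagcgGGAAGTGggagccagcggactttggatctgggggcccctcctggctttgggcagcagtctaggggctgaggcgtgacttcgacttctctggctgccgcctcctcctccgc
Syk second promoter: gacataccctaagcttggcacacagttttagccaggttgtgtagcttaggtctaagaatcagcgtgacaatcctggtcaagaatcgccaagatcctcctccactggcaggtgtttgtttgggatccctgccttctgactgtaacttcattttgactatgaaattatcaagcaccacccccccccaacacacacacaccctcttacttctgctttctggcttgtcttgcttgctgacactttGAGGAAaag
Inpp5d: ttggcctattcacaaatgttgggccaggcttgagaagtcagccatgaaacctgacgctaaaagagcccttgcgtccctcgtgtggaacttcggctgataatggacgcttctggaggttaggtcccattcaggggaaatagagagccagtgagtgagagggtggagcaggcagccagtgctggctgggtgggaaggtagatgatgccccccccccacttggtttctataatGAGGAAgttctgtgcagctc
Plcg2: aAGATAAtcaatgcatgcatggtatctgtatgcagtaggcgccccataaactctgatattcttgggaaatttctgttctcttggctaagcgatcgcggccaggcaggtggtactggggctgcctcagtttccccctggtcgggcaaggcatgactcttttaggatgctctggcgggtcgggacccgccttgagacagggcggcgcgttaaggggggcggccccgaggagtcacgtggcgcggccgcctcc
GGAAGTG stood in the Fgr promoter at bases -110 to -104 from the start site, and 8.55% of all 32851 RefSeq promoters held that word in the same window. GAGGAA stood in the second Syk promoter at -9 to -4 and in Inpp5d at -20 to -15, against 23.3% of all promoters. AGATAA stood in Plcg2 at -249 to -244, the outer edge of the window, against 9.99% of all promoters. The 4 other promoters, those of Fes, Btk and Ptpn6 and the first of Syk, held none of these exact words. Variants of the words were not searched. A match describes the letters and is neither a binding site nor a cause of a change.

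Levels are given as the log2 intensity of a probe minus the 75th percentile of its array, so that 0 is as bright as that percentile. Such a level can be set against the same probe in another group, but not against another probe. A gene is called when limma gives an adjusted p under 0.05, adjusted by the Benjamini-Hochberg method across the 36585 probes tested. A gene with several probes is represented by the brightest one over all arrays, and the other probes of a member or of another named pathway gene are given beside it.

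Between 80.4% and 89.6% of the spots of an array were well above background. The 9 arrays lay on 3 slides, each with 1 array of every group. The first principal component of all genes (36.5% of the variance) lay mostly between slides (78.4% of it), and the second (28.4%) between groups (98.7% of it). EV replicate 3 was least like the others, with a mean correlation of 0.96 to the other arrays where those of the rest were 0.971 to 0.978. The targeted genes followed the labels. Gata2 read 4.50, 5.04 and 4.86 in EV and 3.61, 2.96 and 3.01 in Gata2 KD, a fall of 1.61 ± 0.23 (log2 change ± SE, adjusted p = 0.00414). Spi1 fell by 1.73 ± 0.16 in Pu.1 KD (adjusted p = 0.00178) and rose by 1.39 ± 0.16 in Gata2 KD (adjusted p = 0.0012). Marker genes of other blood cells moved as well. Over all tested genes, 4.21% were called higher and 2.95% lower in Gata2 KD, and 1.45% and 2.16% in Pu.1 KD. Of 11 tested neutrophil markers, 11 were higher in Gata2 KD and 9 lower in Pu.1 KD, and their summed linear level, in units of the 75th percentile, was 241 to 270 in EV, 1127 to 1342 in Gata2 KD and 106 to 125 in Pu.1 KD. Of 10 tested monocyte and macrophage markers, 7 were higher in Gata2 KD and 3 lower in Pu.1 KD, with sums of 35.3 to 39, 221 to 277 and 15.7 to 16.9. Mast cell and basophil markers went the other way in Gata2 KD, where 7 of 9 were lower, with sums of 126 to 145 in EV, 24.6 to 26.7 in Gata2 KD and 90 to 98.2 in Pu.1 KD. Of 6 megakaryocyte markers, 2 were higher in Gata2 KD (Vwf and Ppbp) and 2 in Pu.1 KD (Pf4 and Vwf), with sums of 58.5 to 76.7 in EV, 62.9 to 93.9 in Gata2 KD and 146 to 171 in Pu.1 KD. Of 5 progenitor markers, Kit, Cd34 and Ly6a were higher and Meis1 lower in Gata2 KD, and Kit was higher and Cd34 lower in Pu.1 KD, with sums of 8.77 to 11.6, 41.7 to 47.9 and 7.92 to 8.55. Of 8 tested erythroid markers, Klf1 and Epor were lower in Gata2 KD and higher in Pu.1 KD, with sums of 218 to 307, 127 to 194 and 240.2 to 284. All these sums add different probes, so the brightest genes carry them. Hbb-bt, at 7.70, 8.08 and 8.21 in EV, made up most of the erythroid sum. Cd34, at 5.31, 5.29 and 5.12 in Gata2 KD, made up most of the progenitor sum there. A sum therefore does not show a shift shared by the genes of its list. The part of the marker shifts in the results on the 9 genes was not tested. In sorted bulk RNA, fewer cells of a type and less RNA per cell cannot be told apart.

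Against EV, Gata2 KD raised 4 of the 9 genes: Fgr by 5.45-fold, Syk by 2.51-fold, Ptpn6 by 1.83-fold and Fes by 1.7-fold. The share of all 15808 tested genes called higher in this comparison was 4.21%. No member was called lower by limma (0 of 9, and 1 of 9 at an unadjusted p under 0.05), where 2.95% of all genes were. At that unadjusted p, 6 of 9 were higher. In Pu.1 KD, Lyn was lower by 2.25-fold and was the 1 member called, against 2.16% of all genes called lower and 1.45% called higher. No member was called higher there. At an unadjusted p under 0.05, limma gave 0 of 9 members higher and 5 of 9 lower in Pu.1 KD. The share of all genes at that unadjusted p was not counted. The median log2 change of the 9 members was 0.50 in Gata2 KD and -0.38 in Pu.1 KD, where that of all tested genes was -0.09 and -0.04. Both comparisons use the same EV arrays. Set directly against each other, the knockdowns differed in 6 of the 9 genes, all higher in Gata2 KD: Fgr, Syk, Lyn, Ptpn6, Fes and Plcg2. The share of all genes called was 6.77% higher and 5.6% lower. No member was called lower (1 of 9 at an unadjusted p under 0.05), and the median change of the members was 1.15.

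**Figure D1:**
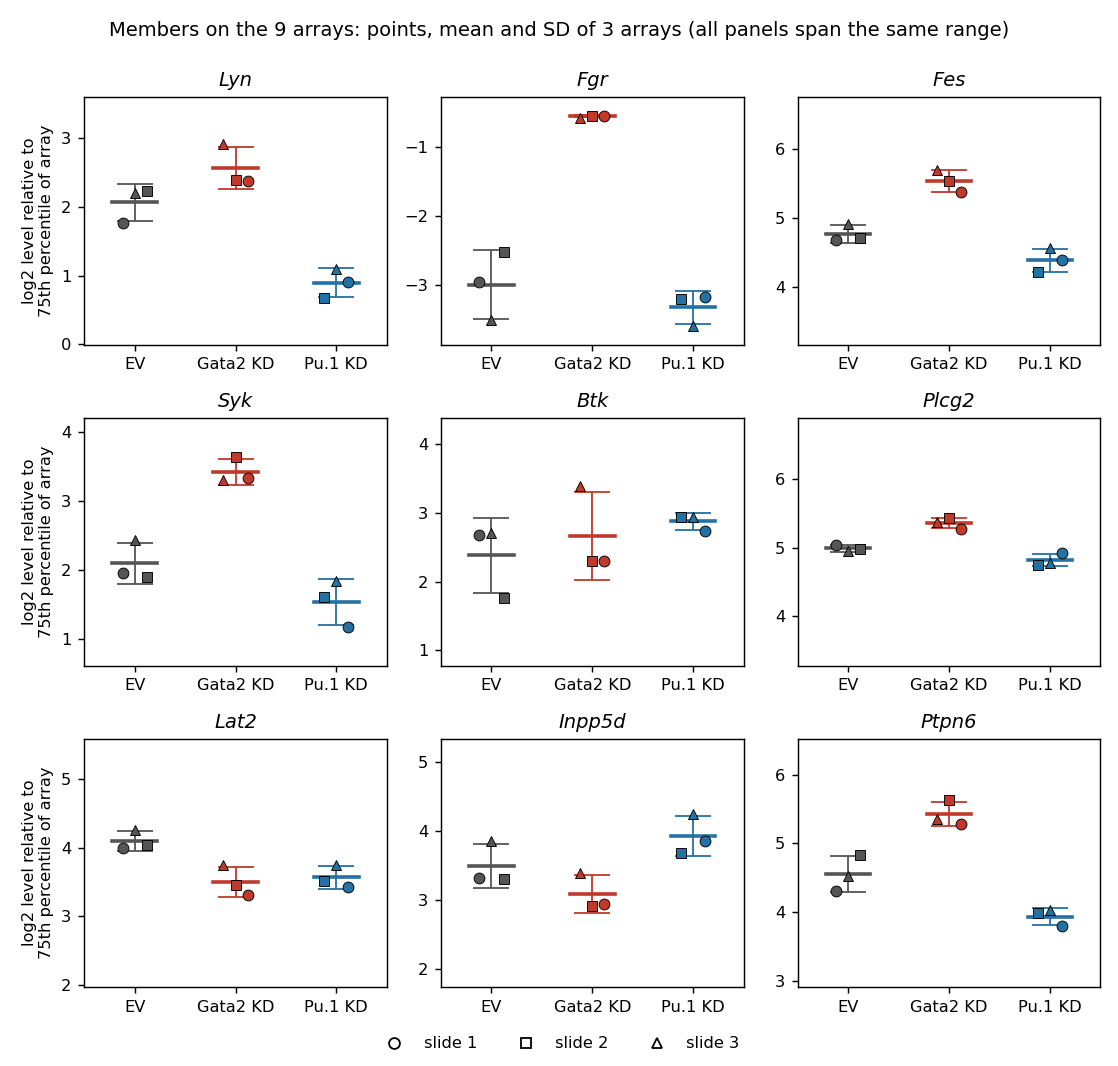
Level of each of the 9 genes on every array, in log2 units relative to the 75th percentile of the array, for EV, Gata2 KD and Pu.1 KD. Points are arrays with their slide as the symbol, bars are the mean and SD of 3 arrays, and all panels span the same range; Fgr and Syk stand clear in Gata2 KD, Lyn is lowest in Pu.1 KD, and Btk overlaps between EV and Gata2 KD.

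Fgr, a Src family kinase of granulocytes and monocytes, showed the largest change of the 9. It read -2.96, -3.51 and -2.52 in EV, -0.57, -0.54 and -0.54 in Gata2 KD, and -3.21, -3.60 and -3.17 in Pu.1 KD. The 3 Gata2 KD arrays were almost level (SD 0.0145) and far above all other arrays, while EV and Pu.1 KD overlapped. The rise over EV was 2.45 (95% interval 1.88 to 3.01, adjusted p = 0.000677). It was found on each slide, at 2.42, 1.97 and 2.94, and the call held under all 21 other settings, with changes from 1.77 to 2.69. Pu.1 KD differed from EV by -0.33 (interval -0.90 to 0.24, adjusted p = 0.784), so a fall of as much as 1.86-fold lies within the interval. The order of the groups was therefore Gata2 KD first, with EV and Pu.1 KD not separated. Fgr is the member whose promoter, printed earlier, holds the longer ETS word. Fes and Ptpn6 were also called higher in Gata2 KD, and their promoters held none of the words. A link between a word and a change was not tested.

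Lyn, the Src family kinase that phosphorylates activating as well as inhibitory motifs, was the 1 member called in Pu.1 KD in the reported fit. Its brighter probe read 1.76, 2.21 and 2.23 in EV, 2.91, 2.40 and 2.38 in Gata2 KD, and 0.68, 1.10 and 0.91 in Pu.1 KD. No Pu.1 KD array reached the lowest EV array, and the Gata2 KD arrays lay just above the EV arrays without overlap. The fall in Pu.1 KD was 1.17 ± 0.21 (log2 change ± SE, interval -1.66 to -0.68, adjusted p = 0.0275), with -0.85, -1.56 and -1.11 on the 3 slides. The second probe, which read -0.78, -0.68 and -0.32 in EV against -1.40, -1.36 and -1.55 in Pu.1 KD, gave a change of -0.84 (adjusted p = 0.0429). The call for Lyn was not firm. It was lost without any 1 of EV replicates 2 and 3, Gata2 KD replicates 2 and 3 and Pu.1 KD replicates 1, 2 and 3 (changes of -1.06 to -1.27, adjusted p from 0.0517 to 0.129), when arrays were scaled to their median (adjusted p = 0.155) and in a fit of EV and Pu.1 KD alone (adjusted p = 0.081). In Gata2 KD, Lyn differed from EV by 0.50 (interval 0.01 to 0.99, adjusted p = 0.336), and by 0.45 at the second probe (adjusted p = 0.258). Gata2 KD and Pu.1 KD differed by 1.67 (adjusted p = 0.00145), a call made under all 21 other settings.

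Fes is a cytoplasmic kinase of myeloid cells that binds curved membranes and acts downstream of cytokine and Fc receptors. Its brighter probe read 4.69, 4.91 and 4.71 in EV, 5.70, 5.54 and 5.37 in Gata2 KD, and 4.22, 4.56 and 4.39 in Pu.1 KD. The 3 groups did not overlap, with Gata2 KD highest and Pu.1 KD lowest. The rise in Gata2 KD was 0.77 ± 0.15 (interval 0.42 to 1.12, adjusted p = 0.0239), and slides 1, 2 and 3 gave 0.69, 0.83 and 0.79. The second probe read 3.77, 3.97 and 3.95 in EV and 4.71, 4.73 and 4.73 in Gata2 KD, a rise of 0.83 (adjusted p = 0.00888). The size of the rise was steady (0.69 to 0.85 over 21 other settings) but the call of the brighter probe was lost without EV replicate 1 or 3, Gata2 KD replicate 1 or 2, or Pu.1 KD replicate 3 (adjusted p from 0.0503 to 0.104), under median scaling (0.189) and in the fit of EV and Gata2 KD alone (0.0787). In Pu.1 KD the change was -0.38 (interval -0.73 to -0.03, adjusted p = 0.345), so the step from EV down to Pu.1 KD did not pass the test. The direct difference between the knockdowns was 1.15 (adjusted p = 0.0018).

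Syk, which docks on phosphorylated ITAMs through a pair of SH2 domains, had the next largest change after Fgr. It read 1.95, 2.44 and 1.90 in EV, 3.30, 3.64 and 3.33 in Gata2 KD, and 1.60, 1.83 and 1.18 in Pu.1 KD. Every Gata2 KD array lay above every EV array, and every Pu.1 KD array below. The rise in Gata2 KD was 1.33 ± 0.22 (interval 0.82 to 1.84, adjusted p = 0.0102) with within-slide differences of 1.38, 1.74 and 0.87. It was 1.22 (adjusted p = 0.0564) without Gata2 KD replicate 2, and the call held under the other 20 settings. The change in Pu.1 KD was -0.56 (interval -1.07 to -0.05, adjusted p = 0.333), which did not pass the test. Gata2 KD exceeded Pu.1 KD by 1.89, or 3.7-fold (adjusted p = 0.000915). The Syk promoter that holds GAGGAA just before its start site is the second of its promoters, and the 1 Syk probe cannot tell the transcripts from them apart.

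Btk, the Tec family kinase best known from B cell development, passed the test in no comparison. It read 2.68, 2.71 and 1.76 in EV, 3.40, 2.30 and 2.30 in Gata2 KD, and 2.95, 2.95 and 2.74 in Pu.1 KD. The Pu.1 KD arrays lay just above the EV arrays without overlap, while Gata2 KD overlapped both. EV replicate 3 was the lowest and Gata2 KD replicate 1 the highest of all 9 arrays, although the Btk probe is printed 10 times on an array and each value combines those spots. Changes were 0.28 in Gata2 KD (interval -0.54 to 1.10, adjusted p = 0.912) and 0.49 in Pu.1 KD (interval -0.32 to 1.31, adjusted p = 0.767). Within slides the Gata2 KD difference ran from -0.39 to 0.68. These intervals include a change of more than 1 log2 unit, so the arrays did not settle whether Btk changed. The B cell markers gave little signal beside it: 0 of 7 were called in Gata2 KD by limma (1 at an unadjusted p under 0.05), and their summed level was 1.48 to 2.18 in EV, 1.76 to 2.33 in Gata2 KD and 1.13 to 1.84 in Pu.1 KD. In Pu.1 KD 1 of the 7 was lower, Cd79b, the signaling chain of the B cell receptor. Of 4 tested T and NK cell markers, 0 were called in either knockdown (0 at an unadjusted p under 0.05), and Ncr1 was too dim to test.

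Plcg2 cleaves a membrane phosphoinositide into the messengers that release calcium and activate protein kinase C. It was among the steadiest of the members, at 5.04, 4.95 and 4.98 in EV, 5.37, 5.43 and 5.27 in Gata2 KD, and 4.75, 4.78 and 4.92 in Pu.1 KD. The 3 groups again did not overlap. The differences were small: 0.37 in Gata2 KD (interval 0.09 to 0.65, adjusted p = 0.167) and -0.17 in Pu.1 KD (interval -0.45 to 0.11, adjusted p = 0.755). Between the knockdowns the difference was 0.54 ± 0.12, or 1.45-fold (adjusted p = 0.0258). That call was lost without any 1 of the 6 knockdown arrays (Gata2 KD or Pu.1 KD replicates 1, 2 and 3, adjusted p from 0.0519 to 0.121), under median scaling (0.171) and in the fit of the knockdowns alone (0.0551).

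Lat2 is a membrane adaptor that, like Lat, collects signaling proteins after receptor engagement, and is known from mast cells and B cells. Its brighter probe read 3.99, 4.26 and 4.04 in EV, 3.74, 3.45 and 3.32 in Gata2 KD, and 3.52, 3.75 and 3.43 in Pu.1 KD. Both knockdowns lay below EV without overlap and overlapped each other. The changes were -0.59 in Gata2 KD (interval -0.97 to -0.21, adjusted p = 0.1) and -0.53 in Pu.1 KD (interval -0.91 to -0.15, adjusted p = 0.182), neither past the threshold. Within slides they were almost equal, at -0.67, -0.59 and -0.52 in Gata2 KD and -0.56, -0.52 and -0.51 in Pu.1 KD, and with slide as a block both were called (adjusted p = 0.0112 and 0.0259). The second probe scattered more, at 1.18, 1.58 and 0.62 in EV, 0.45, 0.82 and 0.81 in Gata2 KD and 1.15, 0.80 and 0.44 in Pu.1 KD. Its changes, -0.43 and -0.33, had adjusted p = 0.629 and 0.839. The knockdowns differed from each other by -0.06 (interval -0.44 to 0.32, adjusted p = 1).

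The inhibitory phosphatases differed in the sign of their changes. Inpp5d, the lipid phosphatase, read 3.32, 3.86 and 3.30 in EV, 3.40, 2.91 and 2.94 in Gata2 KD, and 3.68, 4.25 and 3.86 in Pu.1 KD. It was the 1 member with its lowest mean in Gata2 KD and its highest in Pu.1 KD, and only the knockdowns did not overlap. Changes against EV were -0.41 in Gata2 KD (interval -0.94 to 0.12, adjusted p = 0.539) and 0.44 in Pu.1 KD (interval -0.09 to 0.97, adjusted p = 0.552). The difference between the knockdowns was -0.84 (interval -1.38 to -0.31, adjusted p = 0.0605), just short of the threshold. It was -0.92, -0.76 and -0.86 on the 3 slides. With slide as a block it was called (adjusted p = 0.00178), as were the changes in Gata2 KD (0.0471) and in Pu.1 KD (0.0493). The Inpp5d promoter holds GAGGAA, as the second Syk promoter does. No change of Inpp5d was called in the reported fit, and a link between the word and a change was not tested.

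Ptpn6, the tyrosine phosphatase, was higher in Gata2 KD, as were Fgr, Syk and Fes. Its brighter probe, assigned to transcript NM_001077705, read 4.30, 4.53 and 4.83 in EV, 5.36, 5.63 and 5.29 in Gata2 KD, and 3.98, 4.03 and 3.80 in Pu.1 KD. The 3 groups did not overlap. The rise in Gata2 KD was 0.87 ± 0.18 (interval 0.47 to 1.27, adjusted p = 0.0247), and the slides gave 0.99, 0.80 and 0.83. The change in Pu.1 KD was -0.62 (interval -1.02 to -0.22, adjusted p = 0.137), called with slide as a block (0.0322). The second probe, assigned to transcript NM_013545, read 0.40, -0.19 and 0.00 in EV, 0.07, 0.62 and 0.62 in Gata2 KD, and -0.01, -0.27 and 0.09 in Pu.1 KD, where all groups overlapped. It differed from EV by 0.37 in Gata2 KD (adjusted p = 0.582), so the probes of Ptpn6 disagreed on the call though not on the sign, and their mean gave 0.62 (adjusted p = 0.0528). The call of the brighter probe was lost without EV replicate 1 or 2, Gata2 KD replicate 1, 2 or 3, or Pu.1 KD replicate 1 (changes of 0.75 to 0.94, adjusted p from 0.0535 to 0.12), under median scaling (0.0617) and in the fit of EV and Gata2 KD alone (0.0971). Between the knockdowns the brighter Ptpn6 probe differed by 1.49, or 2.81-fold (adjusted p = 0.00091), a call made under all 21 other settings. The second probe differed by 0.50 (interval -0.01 to 1.01, adjusted p = 0.279), which was not called.

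**Figure D2:**
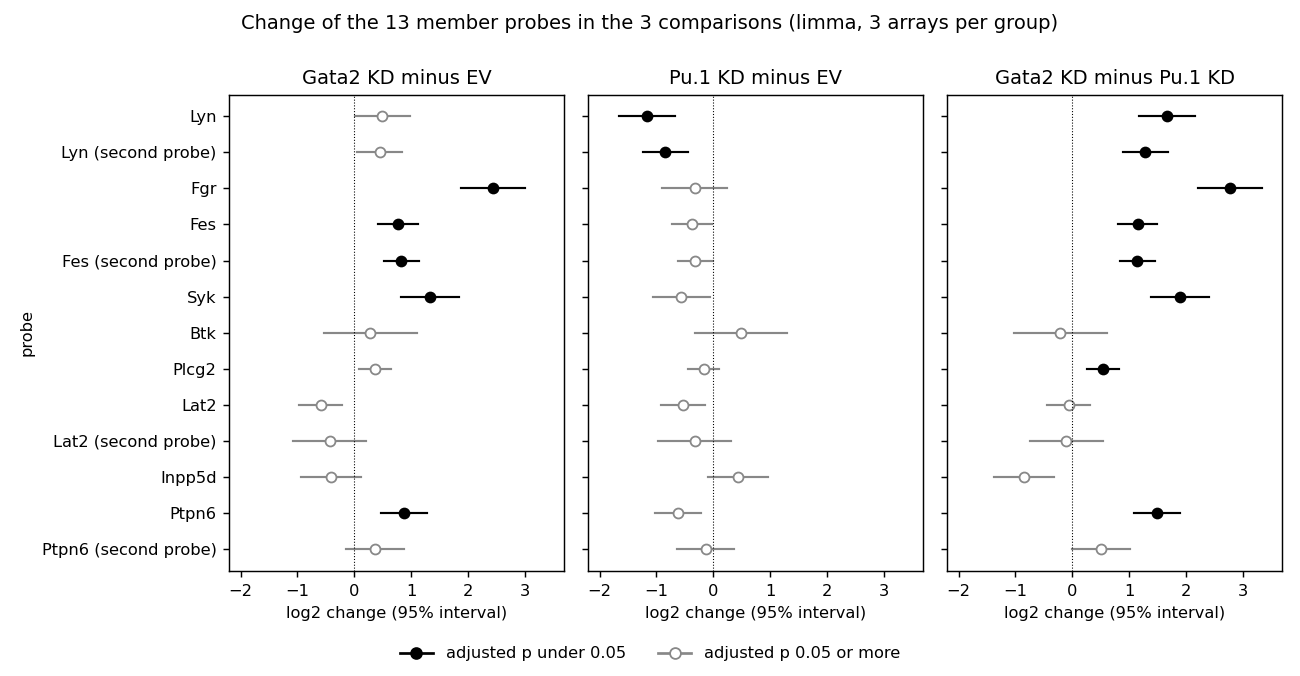
Log2 change of all 13 member probes with its 95% interval, in Gata2 KD minus EV, Pu.1 KD minus EV and Gata2 KD minus Pu.1 KD (limma, 3 arrays per group); filled points passed an adjusted p of 0.05. The second probes of Lyn and Fes lie near the first, the second probe of Ptpn6 lies closer to 0, and 6 of 9 genes are called between the knockdowns.

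Across the members, counts changed with the arrays used. In Gata2 KD against EV, 2 of 9 members were called without EV replicate 1 or without Gata2 KD replicate 1, and 1 of 9, Fgr, without Gata2 KD replicate 2. Of all genes, 5.49%, 5.17% and 4.21% were called in those fits, in that order. Without EV replicate 3, 3 were called in Gata2 KD (Fgr, Ptpn6 and Syk), 0 in Pu.1 KD and 6 between the knockdowns, beside 6.26%, 2.68% and 13.3% of all genes. With slide as a block, 6 were called in Gata2 KD (4 higher, and Lat2 and Inpp5d lower), 4 in Pu.1 KD (Lyn, Lat2 and Ptpn6 lower, Inpp5d higher) and 7 between the knockdowns (6 higher, Inpp5d lower). The share of all genes called rose with it, to 10.2%, 6.55% and 17.6%, from 7.15%, 3.61% and 12.4% in the reported fit. Scaling moved the balance of calls over all genes: of those called in Gata2 KD against EV, 58.8% were higher, and 71.9% when arrays were scaled to their median, a setting that called 2 members, Fgr and Syk, both higher. That setting called 4.55% of all genes in this comparison.

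**Figure D3:**
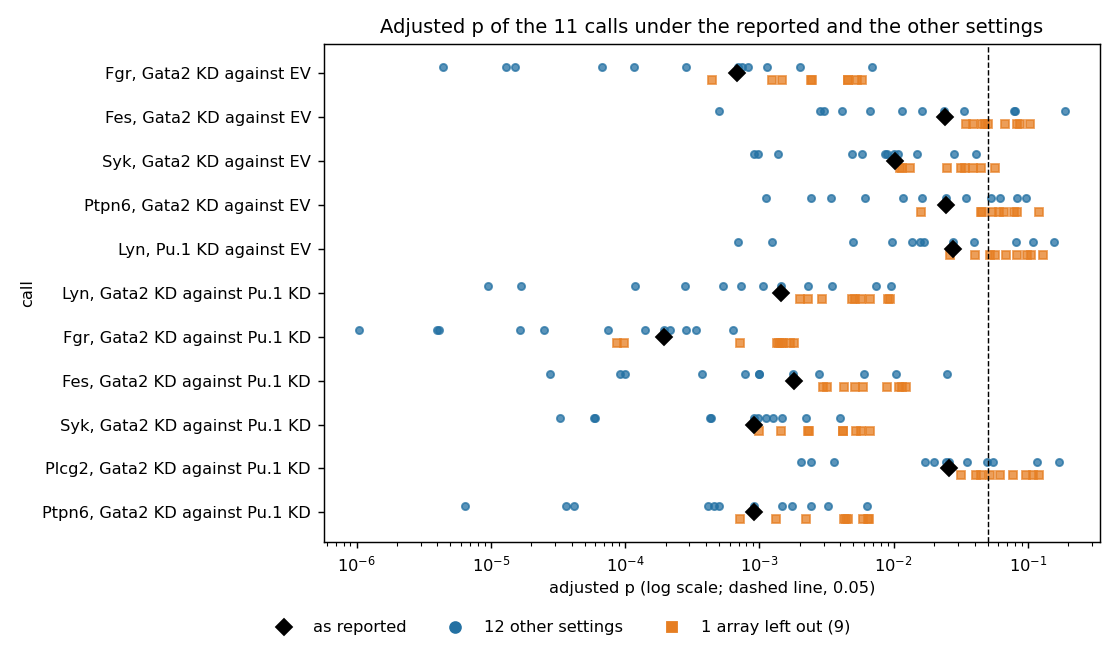
Adjusted p of each of the 11 calls among the members (log scale, dashed line at 0.05): as reported, under 12 other settings, and with each of the 9 arrays left out. Fgr in Gata2 KD and 5 of the 6 calls between the knockdowns stay under the line throughout, while Fes, Syk and Ptpn6 in Gata2 KD, Lyn in Pu.1 KD and Plcg2 between the knockdowns cross it.

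The wider machinery was taken as 5 lists of 60 genes, of which 56 had a named and tested probe. Of these, 12 were higher and 4 lower in Gata2 KD (21.4% and 7.14%), and 2 were higher and 3 lower in Pu.1 KD (3.57% and 5.36%). Of all tested genes, 4.21% were higher and 2.95% lower in Gata2 KD, and 1.45% and 2.16% in Pu.1 KD. The counts within single lists, given afterwards, are to be read beside the same shares. The median log2 change of the 56 was 0.10 in Gata2 KD and -0.03 in Pu.1 KD, where that of all genes was -0.09 and -0.04, so calls sat in a minority of the genes. Between the knockdowns 17 were higher in Gata2 KD and 6 lower (30.4% and 10.7%), against 6.77% and 5.6% of all genes. Without Gata2 KD replicate 2, 6 were higher and 4 lower in Gata2 KD. The 5 calls in Pu.1 KD became 3 without EV replicate 2, Gata2 KD replicate 2 or 3 or Pu.1 KD replicate 3, and 2 without Pu.1 KD replicate 1 or 2. They became 8 with slide as a block (2 higher, 6 lower), with the deposited values (3 higher, 5 lower) and with probes well above background on all arrays (2 higher, 6 lower), and 10 with the trend and robust variance model (2 higher, 8 lower). They became 2, both lower, under median scaling, with the replicate block and in the fit of 2 groups, which called 6 higher and 4 lower in Gata2 KD. The share of all genes called in Pu.1 KD moved too, from 3.61% as reported to 6.55% with slide as a block and 0.924% with the replicate block. Of the 16 called in Gata2 KD, 9 had another tested probe, which was also called for 2, had the same sign without a call for 6 and the opposite sign for 1, Vav3.

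Among the other Src family kinases and their controllers, 1 of 9 was higher in Gata2 KD, and limma called 0 of 9 in Pu.1 KD (1 higher and 1 lower at an unadjusted p under 0.05). Ptpn22, a phosphatase that acts on Src and Syk family kinases, rose by 1.12 in Gata2 KD (adjusted p = 0.0201), a call lost without EV replicate 1 or 3 or any 1 Gata2 KD array (adjusted p from 0.052 to 0.0747). Csk, the kinase that switches off Src family members, differed from EV by 0.15 (adjusted p = 0.935), and Ptprc, the phosphatase CD45 that activates them, by 0.50 at its brightest probe (adjusted p = 0.154). The other Ptprc probes gave 0.79 (adjusted p = 0.0361), which was called, and 0.40 (adjusted p = 0.286) in Gata2 KD, and the 3 probes gave -0.40, -0.41 and -0.44 in Pu.1 KD, none called.

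Among relatives of Syk, Btk and Fes, 1 of 7 was called. Txk, a Tec family kinase, fell by 1.95 in Gata2 KD (adjusted p = 0.00109), and by 1.51 at its second probe. Tec itself differed from EV by -0.71 in Gata2 KD and -0.80 in Pu.1 KD (adjusted p = 0.0902 and 0.0788), and its second probe by -0.61 and -0.66 (adjusted p = 0.335 and 0.332).

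The ITAM chains and scaffolds split in direction, with 5 of 15 higher and 2 lower in Gata2 KD. Tyrobp, the ITAM chain of many myeloid receptors, read 5.02, 5.04 and 5.38 in EV, 6.41, 6.44 and 6.03 in Gata2 KD, and 2.60, 2.70 and 2.70 in Pu.1 KD. The 3 groups were well separated. It rose by 1.14 in Gata2 KD (adjusted p = 0.00503) and fell by 2.48, or 5.57-fold, in Pu.1 KD (adjusted p = 0.000787). Fcer1g, the corresponding chain of Fc receptors, differed from EV by 0.06 (interval -0.27 to 0.39) and -0.07 (interval -0.40 to 0.26). Nfam1, a membrane protein with an ITAM, rose by 1.98 in Gata2 KD (adjusted p = 0.000855) and by 1.39 at its second probe (adjusted p = 0.00446). In Pu.1 KD its brighter probe differed by -0.83 (adjusted p = 0.0905) and its second fell by 1.75 (adjusted p = 0.00414). Grap, an adaptor of the Grb2 family, rose by 1.40 (adjusted p = 0.00949; 0.0537 without Gata2 KD replicate 2). Lat, the adaptor related to Lat2, read 2.08, 2.35 and 2.60 in EV, 0.55, 0.38 and 0.25 in Gata2 KD, and 2.72, 2.69 and 2.71 in Pu.1 KD. It fell by 1.95, or 3.85-fold, in Gata2 KD (adjusted p = 0.000259) and differed by 0.37 in Pu.1 KD (adjusted p = 0.417). Lat and Lat2 both had lower means in Gata2 KD, and of them Lat passed the test. In Pu.1 KD they differed in sign, at 0.37 for Lat and -0.53 for Lat2, neither called. Mast cell and basophil markers were also lower in Gata2 KD, and a link to either gene was not tested.

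Of the effectors downstream of Plcg2 and PI3-kinase, 4 of 13 were higher in Gata2 KD and 1 was lower in Pu.1 KD. Prkcb, the protein kinase C isoform that responds to the lipid product of Plcg2, read -0.55, -0.18 and -0.45 in EV, 2.43, 2.30 and 1.96 in Gata2 KD, and -0.44, -0.33 and -0.54 in Pu.1 KD. It rose by 2.62 in Gata2 KD (adjusted p = 6.45e-05), while its second probe differed by 0.24 (adjusted p = 0.83). Pik3r5, a regulatory subunit of the PI3-kinase used by chemokine receptors, rose by 2.12 in Gata2 KD (adjusted p = 5.28e-05) and fell by 1.35 in Pu.1 KD (adjusted p = 0.00261). Its second probe gave 0.50 and -0.15 (adjusted p = 0.55 and 0.985), so both genes rest on 1 of their probes. Prkcd rose by 0.93 (adjusted p = 0.0132), and Vav3, a guanine nucleotide exchange factor, by 0.71 (adjusted p = 0.0205). Their second probes gave 1.27 (Prkcd, adjusted p = 0.0855) and -0.11 (Vav3, adjusted p = 0.982). The call of Prkcd was lost without Gata2 KD replicate 2 or 3 (adjusted p from 0.0536 to 0.0717), and that of Vav3 without EV replicate 2 or any 1 Gata2 KD array (0.0624 to 0.0937).

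The negative regulators changed in both directions, with 2 of 12 higher and 1 lower in Gata2 KD, and 2 higher and 1 lower in Pu.1 KD. All calls in Pu.1 KD were in the Dok adaptors, which bring inhibitory proteins to activated kinases. Dok2 read 6.03, 5.99 and 5.98 in EV, 4.69, 4.73 and 4.64 in Gata2 KD, and 6.48, 6.66 and 6.58 in Pu.1 KD. Its replicates were tight and the groups did not overlap. It fell by 1.31 in Gata2 KD (adjusted p = 0.000349) and rose by 0.57 in Pu.1 KD (adjusted p = 0.0443). Dok1 rose in both, by 0.87 (adjusted p = 0.00925) and 0.74 (adjusted p = 0.0341), while its second probe gave 0.68 (adjusted p = 0.063) and 0.64 (adjusted p = 0.107), neither called. Dok3 fell by 1.03 in Pu.1 KD (adjusted p = 0.0116) and differed by 0.58 in Gata2 KD (adjusted p = 0.0732). Sh2b3, an adaptor that restrains cytokine receptor signaling, rose by 0.65 in Gata2 KD (adjusted p = 0.0366). The calls of Dok1 and Dok2 in Pu.1 KD were lost when any 1 of the 9 arrays was left out (adjusted p from 0.0505 to 0.157 and from 0.072 to 0.174), that of Dok3 without Pu.1 KD replicate 1 or 2 (0.0528 to 0.0657), and that of Sh2b3 without any 1 array but Gata2 KD replicate 1 (0.0561 to 0.172).

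**Figure D4:**
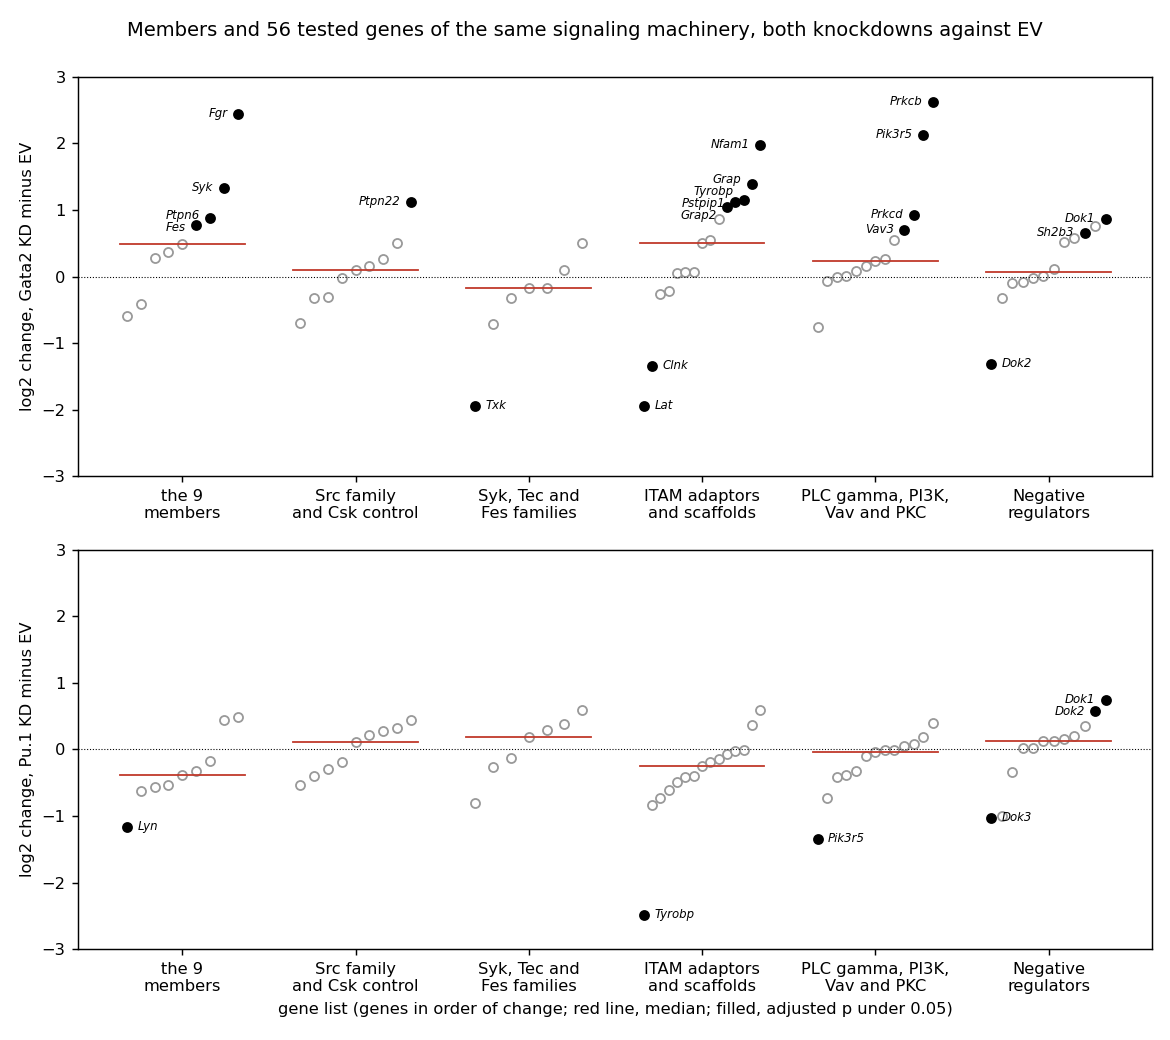
Log2 change of the 9 members and of the 56 tested genes in 5 lists, in Gata2 KD minus EV and Pu.1 KD minus EV, with the EV arrays shared by both. Points are genes in order of change within a list, filled where the adjusted p was under 0.05, and red lines are medians; of the list genes Prkcb rises highest in Gata2 KD at 2.62 and Tyrobp falls furthest in Pu.1 KD at -2.48.

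For each member, the named gene outside the 9 whose levels followed it most closely over the 9 arrays was found by Pearson correlation. These values describe 9 arrays in 3 groups, so any gene that separates the groups in the same order scores highly. Fgr was followed most closely by Mrc1, the mannose receptor of macrophages (r = 0.997), then Fcnb and Hfe (both 0.995). Fes was followed by Tep1, Stfa3 and Cebpb, the last a myeloid transcription factor (0.995, 0.993 and 0.993), and Syk by Pla2g15, Arl11 and Mapkapk3 (0.991, 0.985 and 0.984). Lyn was nearest to Ostf1, Galt and Arel1 (0.995, 0.994 and 0.994), Plcg2 to Pycard, Snx20 and Slc16a3 (0.995, 0.989 and 0.988), and Ptpn6 to B4galnt1, Twf2 and Kctd20 (0.994, 0.994 and 0.993). The genes nearest to Inpp5d were Fbxo33, Nmnat3 and Yod1 (0.983, 0.981 and 0.974), and those nearest to Lat2 were Tspan3, Hnrnpab and Eef1e1 (0.974, 0.972 and 0.965). Btk had the lowest such values, with Tbc1d24, Olfr1153 and Dcaf12l2 (0.941, 0.933 and 0.927).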

How the data were processed

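Total RNA from 9 samples (3 each of EV, Gata2 KD and Pu.1 KD) was hybridized to single-color arrays. Per the file headers, the authors scanned them with Agilent Feature Extraction 10.1.1.1, and the design of the array is annotated to build mm8. The deposited scanner files hold processed signals (background-subtracted intensities), median and background intensities and quality flags. A deposited table of log2 values, with column medians of 7.00 to 7.05, follows the log2 median signal of each array (r of 0.997 or more) with no stated centering, and served only as an alternative.

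The log2 of the processed intensity minus the array's 75th percentile over 41174 probes was used, with control spots and outlier spots removed (47 to 96 per array, no spot saturated) and the spots of a probe averaged. Probes well above background on at least 3 arrays with 2 values in every group were kept, leaving 36585. RefSeq names matched 23374 probes. limma 3.58.1 in R 4.3.3 fitted all 9 arrays (lmFit, eBayes, two-sided, Benjamini-Hochberg), after a test on simulated data. The number of arrays limits the precision. Alternatives were median scaling, quantile normalization, normexp (offset 50, on the median and background signals, as the mean signal was not used here), other filters, outlier spots kept, replicate and slide blocks, another variance model, the deposited values, 2-group fits, the mean of all probes and leaving out each array. Named genes were the 9 members, the targets, at most 4 called genes per list by largest change against EV, and the 3 closest genes by correlation; Csk, Ptprc, Tec, Fcer1g, Cd79b and the other markers were named after their values were seen. The members and lists were chosen with earlier results of these data known. A gene of the list of Src family relatives and a megakaryocyte marker are not reported here and were left out of the counts and sums.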

Additional observations from a re-analysis of the deposited data

How the results depend on the processing

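Over 21 alternatives for each member and comparison, 501 of 567 values kept their direction and their side of the threshold, 38 lost a call, 24 gained one and 4 reversed. The reversals were of changes not called. With an array left out, Btk in Gata2 KD against EV ran from -0.086 to 0.46, below 0 without EV replicate 3 (-0.03) or Gata2 KD replicate 1 (-0.086), and Lat2 between the knockdowns ran from -0.18 to 0.033, above 0 without Gata2 KD replicate 3 or Pu.1 KD replicate 2 (both 0.03). Members called in Gata2 KD against EV (4) numbered 2 under median scaling, 7 with the deposited log2 values, 2 in the fit of 2 groups and 1 to 4 with an array left out. Of all genes, 7.15% were called as reported, 4.55% under median scaling, 10.2% with the deposited values and 4.37% in the fit of 2 groups. Members called in Pu.1 KD against EV (1) numbered 0 under median scaling, 2 with normexp, 2 with the trend and robust variance model, 3 with the deposited values, 4 with slide as a block, 0 in the fit of 2 groups and 0 or 1 with an array left out. The share of all genes called was 3.61% as reported. With all arrays, it was 1.39%, 5.5%, 6.19%, 6.95%, 6.55% and 0.848% under these settings, in the same order. The cause of these moves was not tested.

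Replicate numbers did not pair the samples, since correlations of same-numbered arrays ran from -0.55 to 0.65. The pair at 0.65, EV and Pu.1 KD replicate 2, also shared a slide. Arrays of the same slide had correlations of -0.04 to 0.72. With the replicate block, 2 members were called in Gata2 KD (Fgr and Syk), 0 in Pu.1 KD and 5 between the knockdowns. The shares of all genes called were 4.5%, 0.924% and 8.51%. All 13 member probes were well above background on all 9 arrays. The interval of Btk was the widest of the 9 members.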
